A study of Rattus norvegicus with 4 samples.

Results

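A set of 5 genes that code for proteins of the compact myelin membrane or its close partners were followed: Mbp (ENSRNOG00000016516), Pmp22 (ENSRNOG00000003338), Mal (ENSRNOG00000015445), Pllp (ENSRNOG00000016558) and Cnp (ENSRNOG00000017496). They were chosen by symbol, and all 5 were found among the 25399 genes of the deposited table. Cells came from sciatic nerve or dorsal root ganglion of Sprague Dawley rats at postnatal day 1 or at 8 weeks, which makes 4 groups with 1 library each. No genotype or treatment separates the groups, the labels give sex as not determined, and they do not say how many animals went into a library. The labels carry a culture protocol for primary Schwann cells in medium with serum, and whether the sequenced cells had been cultured is not stated. The barcodes fell into 4 libraries by the number at their end. That number is tied to no tissue or age by any label. It alone names the libraries here, and tissues and ages were not compared.

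Compact myelin is the spiral of Schwann cell membrane around an axon from which cytoplasm has been squeezed out. Mbp, myelin basic protein, holds the cytoplasmic faces of the membrane together, and Pmp22 is a membrane protein of peripheral myelin whose gene dosage is linked to inherited neuropathy. Mal and Pllp (plasmolipin) are small membrane proteins of myelin lipid domains. Cnp codes for the myelin phosphodiesterase CNPase, which is found mainly in the cytoplasm-filled parts of the sheath, so it is a partner of compact myelin rather than a part of it. Satellite glia are the glial cells that wrap the cell bodies of sensory neurons and do not form compact myelin.

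The counts were unique molecular identifiers (UMIs, 1 for each captured transcript). After a filter on genes and mitochondrial share, 9828, 8426, 6473 and 8448 barcodes were kept in libraries 1 to 4, with median depths of 6617, 1646, 4639 and 7555 UMIs. Before the filter, 383 of the 41444 barcodes had a sequence that occurred in more than 1 library. Classes were gated with markers that exclude the 5 genes and are called by the class they resemble. The Schwann-like class held 98, 243, 253 and 5430 cells in libraries 1 to 4. Satellite glia-like cells numbered 787 in library 2 and 67 in library 3, and 5 each in libraries 1 and 4, too few to describe. Neuron-like barcodes numbered 5563 in library 2 and 3826 in library 3, with 0 in library 1 and 3 in library 4. Of 7 Schwann lineage markers 6 were in the gene table, and each of these had UMIs in the Schwann-like cells of every library. Their summed level there was 25.7, 41.4, 20.6 and 19.2 UMIs per 10,000. Outside glia in the 7 classes it ran from 0.0468 in endothelial-like cells of library 1 to 3.03 in neuron-like barcodes of library 2. Levels below are the summed UMIs of a gene per 10,000 UMIs of the class. Brackets hold exact 95% intervals, which cover counting error only, because each group had 1 library and cells are not replicates.

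The stretches just upstream of 4 of these genes are shown because the genes were highest in the same cell class, and a reader can compare them directly. They are the 250 bases before the first listed start in RefSeq, in build GRCr8, whereas the submitters' processing notes name Rnor_6.0 for the counts. Each is written 5′ to 3′ on the gene's own strand, and capitals mark matches to the motifs searched. Mbp has more than 1 listed start and 15 transcripts in RefSeq, and its upstream windows are not printed. Pmp22 lies at chr10:48294682-48294931 (plus strand), Mal at chr3:135341424-135341673 (minus strand), Pllp at chr19:10320830-10321079 (plus strand) and Cnp at chr10:86011254-86011503 (plus strand).
Pmp22: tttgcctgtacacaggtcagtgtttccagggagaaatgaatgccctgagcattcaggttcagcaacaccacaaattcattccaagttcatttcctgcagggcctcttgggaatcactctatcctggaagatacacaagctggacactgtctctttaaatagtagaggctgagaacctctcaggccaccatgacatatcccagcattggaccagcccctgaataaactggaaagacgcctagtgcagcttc
Mal: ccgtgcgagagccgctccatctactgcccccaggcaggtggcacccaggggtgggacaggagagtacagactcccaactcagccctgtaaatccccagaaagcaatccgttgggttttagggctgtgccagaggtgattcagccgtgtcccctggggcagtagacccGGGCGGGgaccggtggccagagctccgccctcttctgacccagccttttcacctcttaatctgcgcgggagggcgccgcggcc
Pllp: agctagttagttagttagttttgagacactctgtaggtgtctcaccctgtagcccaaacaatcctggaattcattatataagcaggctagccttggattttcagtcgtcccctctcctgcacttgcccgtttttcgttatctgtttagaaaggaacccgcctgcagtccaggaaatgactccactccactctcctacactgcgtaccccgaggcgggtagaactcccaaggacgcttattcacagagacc
Cnp: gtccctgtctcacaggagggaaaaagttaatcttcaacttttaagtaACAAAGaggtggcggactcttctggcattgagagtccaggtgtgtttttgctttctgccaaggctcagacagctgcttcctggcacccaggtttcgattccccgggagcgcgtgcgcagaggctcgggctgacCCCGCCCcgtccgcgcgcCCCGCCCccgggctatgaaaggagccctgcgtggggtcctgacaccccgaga

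Base composition separated the 4 windows into 2 pairs. Mal and Cnp were rich in G and C, at 64.8% and 60.4%, with 14 and 16 CpG pairs. Pmp22 and Pllp had 48.0% and 49.2% GC with 1 and 8 CpG pairs, against a median of 51.2% and 5 CpG pairs over 33469 windows of the same length. These 5 motifs were searched on both strands: ACAAAG for SOX factors, GCGNGGGCG for EGR factors, TATAAA for the TATA box, CACGTG for the E-box and GGGCGGG for the GC-box. Cnp held ACAAAG at 203 bases before the start, a motif found in 16.3% of all windows, and GC-boxes on the minus strand at 70 and 52 bases. Mal held 1 GC-box at 83 bases, a motif found in 21.0% of windows. No match to these letters was found in the Pmp22 and Pllp windows. The shares of windows with the other motifs were 4.29% for GCGNGGGCG, 12.9% for TATAAA and 5.59% for CACGTG. A match is a description of the letters and not evidence of a bound site.

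Among the 7 classes described, all 5 genes were highest in Schwann-like cells in each of the 4 libraries, 20 of 20 gene and library pairs. Glia with exactly 1 UMI of the genes that split Schwann-like from satellite glia-like cells were left out of this order, and the 122 such cells of library 4 stood above its Schwann-like cells for all 5 genes, for example at 27.5 against 20.5 UMIs per 10,000 for Mbp. Pmp22 was the most abundant, followed by Mbp. In library 1 the Schwann-like levels of Cnp, Mal and Pllp were 14.0, 6.92 and 5.33, and Pllp was the lowest of the 5 genes in every library. Within a library, 95 contrasts of a gene between Schwann-like cells and another class could be made, and in 95 the gene was at least 2-fold higher in Schwann-like cells. The share of all tested genes that were at least 2-fold higher is the background for this count. It was 9.56% and 10.7% against satellite glia-like cells of libraries 2 and 3, and 30.7% and 36.2% against neuron-like barcodes. Against fibroblast-like cells it was 49.1%, 13.3%, 12.7% and 12.7% in libraries 1 to 4, and against endothelial-like cells 19.1%, 13.1%, 20.9% and 16.0%. Against mural-like cells it was 17.1%, 12.7% and 10.8% in libraries 2 to 4, and against macrophage-like cells 36.2%, 22.1%, 25.9% and 25.4% in libraries 1 to 4. The count of 95 of 95 was above each of these shares. In the fibroblast contrast of library 1, the floor of 3 UMIs on a side of 98 cells lifts the ratio of low genes. Pllp had 0 UMIs in macrophage-like cells of library 3, so its Schwann-like level was at least 56.1-fold higher there, the lower limit of a ratio of 69.3 against a floor of 3 UMIs. Because each group had 1 library, none of these differences has a replicate check. The Schwann-like levels of library 2 moved by over 1.5 times with the cell filter, and beside each gene below its level is also given at a mitochondrial limit of 10% in place of 20%. The median mitochondrial share of the 243 Schwann-like cells of library 2 was 11.8%, so most of them lay above the 10% limit.

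**Figure D1:**
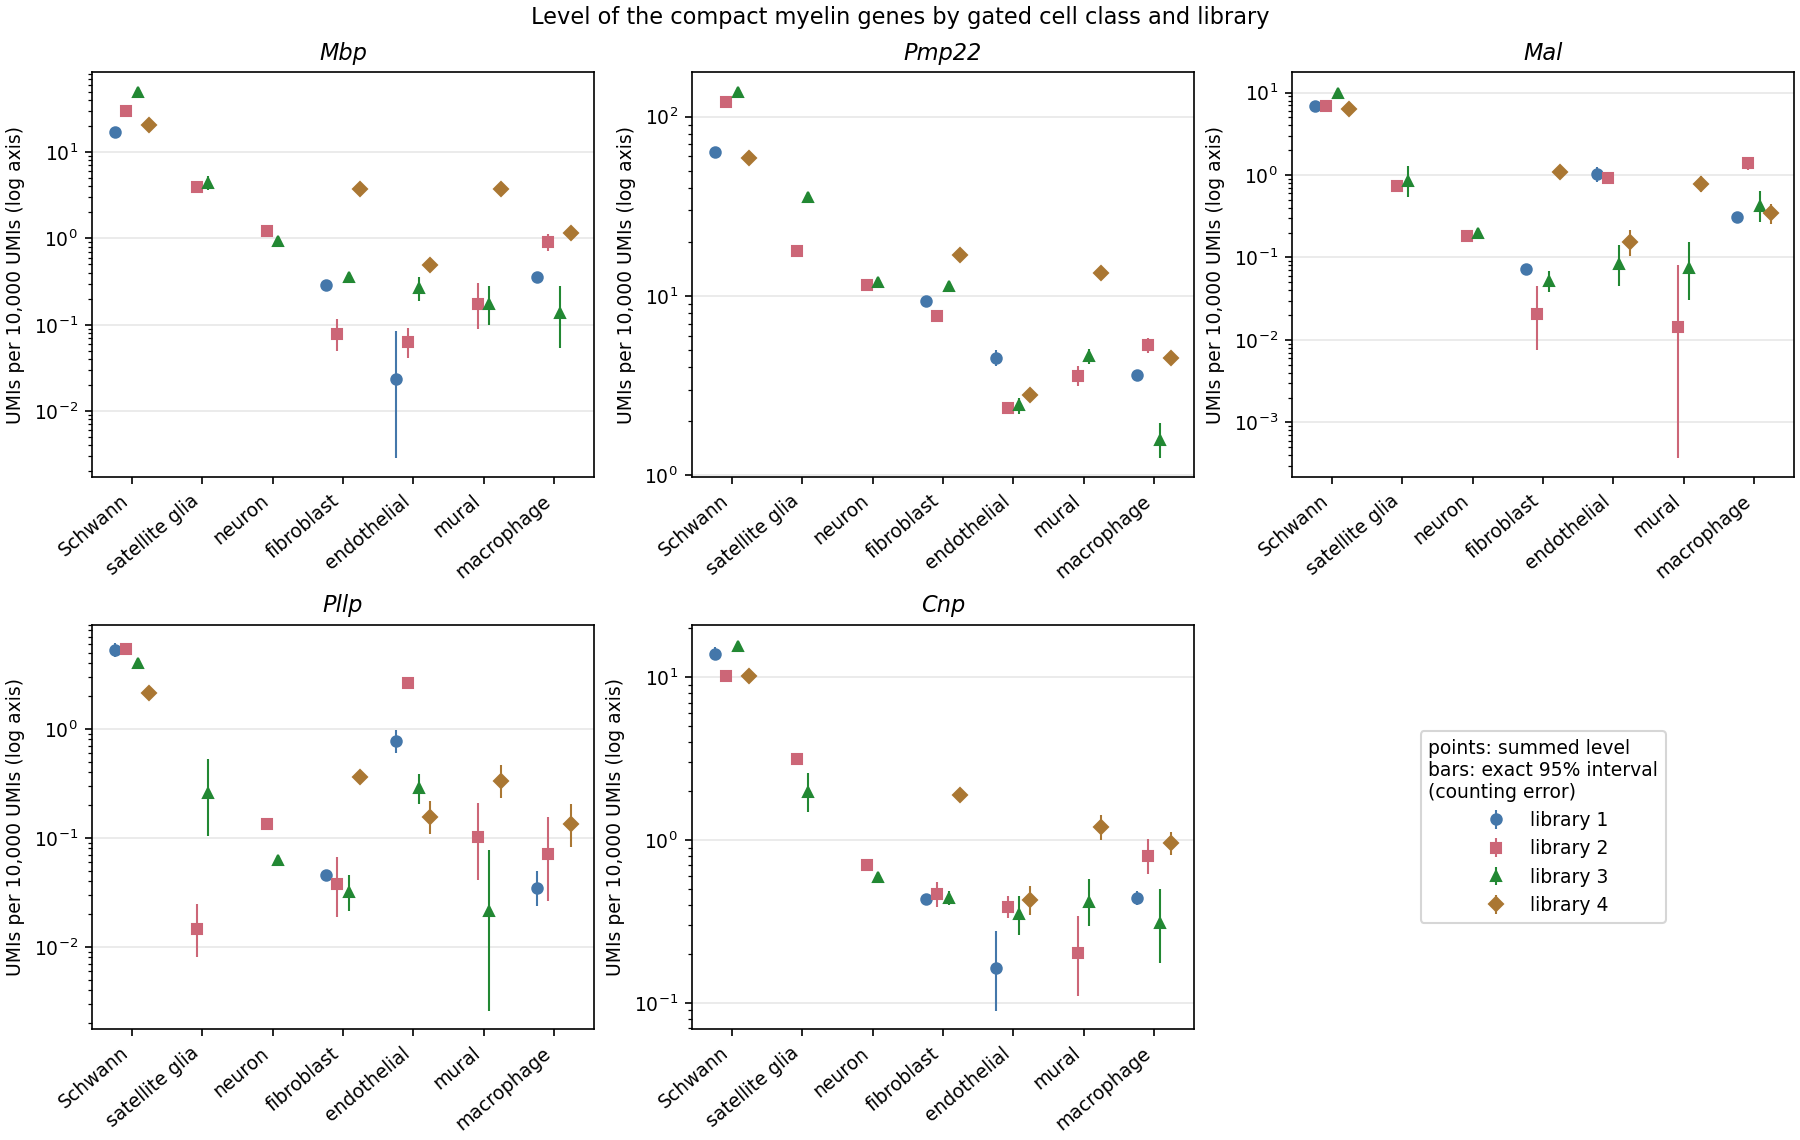
Summed level of each gene (UMIs per 10,000, logarithmic axis, each panel with its own range) in 7 gated cell classes, with 1 point a library where the class held at least 20 cells and with exact 95% bars for counting error. The Schwann-like points stand highest in all 5 panels, the Pllp point of library 2 is raised in endothelial-like cells, and library 4 has the highest Mbp points among fibroblast-like and mural-like cells.

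Mbp stood at 17.3 UMIs per 10,000 in Schwann-like cells of library 1, at 29.6 in library 2, 50.2 in library 3 and 20.5 in library 4. In summed level libraries 1 and 4 were low and library 3 was high, and the counting intervals of the 4 libraries did not overlap. At a mitochondrial limit of 10% library 2 stood at 51.1, nearer to library 3, which was then at 57.9. Single cells varied widely around these levels. In library 2 the cell at the 10th percentile had 0, the median cell 7.59 and the cell at the 90th percentile 102. In library 4 the same percentiles were 6.52, 16.0 and 33.4, a much narrower spread. The median cell had 9.86 in library 1 and 18.3 in library 3. At least 1 Mbp UMI was found in 85.7%, 83.1%, 91.3% and 99.6% of Schwann-like cells in libraries 1 to 4, at median depths of 2949, 4061, 4016 and 7443 UMIs. Endothelial cells, which do not make myelin, gave 1.61% in library 1, 3.98% in library 2, 6.64% in library 3 and 49.3% in library 4, at median depths of 5552, 6201, 4953 and 20565 UMIs. Among endothelial-like cells detection was thus highest in library 4, where they were also deepest. Thinned to 1000 UMIs, 2.78% (0.338 to 9.68) of them had an Mbp UMI in library 4 and 0.885% (0.107 to 3.16) in library 3, with overlapping intervals. Their Mbp level per 10,000 UMIs was also highest in library 4, at 0.498 (0.409 to 0.599). It was 0.0234, 0.0625 and 0.265 (0.190 to 0.359) in libraries 1 to 3.

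Satellite glia-like cells came next for Mbp, with 3.95 (3.83 to 4.08) in library 2 and 4.38 (3.63 to 5.24) in library 3. The Schwann-like level was 7.49-fold higher in library 2 and 11.5-fold higher in library 3, where 9.56% and 10.7% of tested genes were at least 2-fold higher. Detection did not follow the level in library 2. There Mbp had a UMI in 90.1% of satellite glia-like cells and in 83.1% of Schwann-like cells, but the satellite glia-like cells were deeper, with a median of 10092 UMIs. With every cell thinned to 1000 UMIs the shares were 30.8% and 57.6%. All satellite glia-like values rest on barcodes gated by at least 2 UMIs of Fabp7, Kcnj10, Slc1a3 and Bcan, so shallow satellite glia without such UMIs would be counted as Schwann-like.

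In fibroblast-like cells Mbp was at 0.289, 0.0787 and 0.358 in libraries 1 to 3 and at 3.74 in library 4. In libraries 1 and 3 those UMIs sat in few barcodes. The 68 barcodes of library 1 with the most Mbp, 1% of the class, held 75.3% of its Mbp UMIs, and 14 barcodes of library 3 held 73.1%. In library 4 the UMIs were spread more widely, with 59.8% of fibroblast-like cells holding 1 or more and the top 17 barcodes holding 29.6%. The spread was uneven: the median fibroblast-like cell there had 0.756 and the cell at the 90th percentile 24.2. The median Schwann-like cell of library 4 had 16.0. As a mean over cells the fibroblast-like level of library 4 was 7.21. Schwann lineage markers were also highest in library 4. Their summed level in fibroblast-like cells was 0.704, 1.47, 0.958 and 2.40 in libraries 1 to 4, with 0 of 6 markers at 0 in each. In libraries 1 to 3 the orders differed, since library 2 had the lowest Mbp and the highest marker level. Leaving out the 244 fibroblast-like barcodes of library 4 with a Sox10 or Cdh19 UMI lowered Mbp there from 3.74 to 2.79. The Mbp level of mural-like cells in library 4, at 3.72, rested on 2 barcodes that held 79.5% of its UMIs. The part of glial RNA in the wrong barcode, or of mixed barcodes, in these values was not tested.

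Pmp22 had the highest level of the 5 genes in Schwann-like cells, with 63.3 UMIs per 10,000 in library 1, 120.3 in library 2, 137 in library 3 and 59.0 in library 4. Libraries 2 and 3 were high and libraries 1 and 4 low. At a mitochondrial limit of 10% library 2 was the highest, at 273 against 161 in library 3. It was found in 99.0%, 100%, 99.6% and 99.9% of Schwann-like cells. Pmp22 was also the gene that other classes shared most. Satellite glia-like cells had 17.7 (17.4 to 18.0) in library 2 and 35.4 (33.2 to 37.7) in library 3. Fibroblast-like cells had 9.35, 7.76, 11.3 and 17.0 in libraries 1 to 4, and neuron-like barcodes 11.51 and 11.98 in libraries 2 and 3. Perineurial-like cells of library 1, the barrier cells around nerve bundles, had 8.84. Endothelial-like cells ranged from 2.36 to 4.53 over the libraries and macrophage-like cells from 1.56 to 5.31.

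Unlike Mbp, fibroblast Pmp22 was not carried by a few barcodes. In library 1 it was found in 93.7% of 6787 fibroblast-like cells, and the top 68 barcodes held 8.82% of its UMIs. Without the 98 fibroblast-like barcodes of library 1 that had a Sox10 or Cdh19 UMI, the level was 9.09 in place of 9.35. Thinned to 1000 UMIs, 51.4% of these cells still had a Pmp22 UMI and 2.13% had an Mbp UMI. The Schwann-like level was 6.77-fold higher than the fibroblast level in library 1, 15.5-fold in library 2, 12.1-fold in library 3 and 3.48-fold in library 4. At least 2-fold higher were 49.1%, 13.3%, 12.7% and 12.7% of tested genes in these contrasts. In library 1 the Pmp22 ratio stood above only 80.4% of tested genes, the lowest rank among its 4 fibroblast contrasts.

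**Figure D2:**
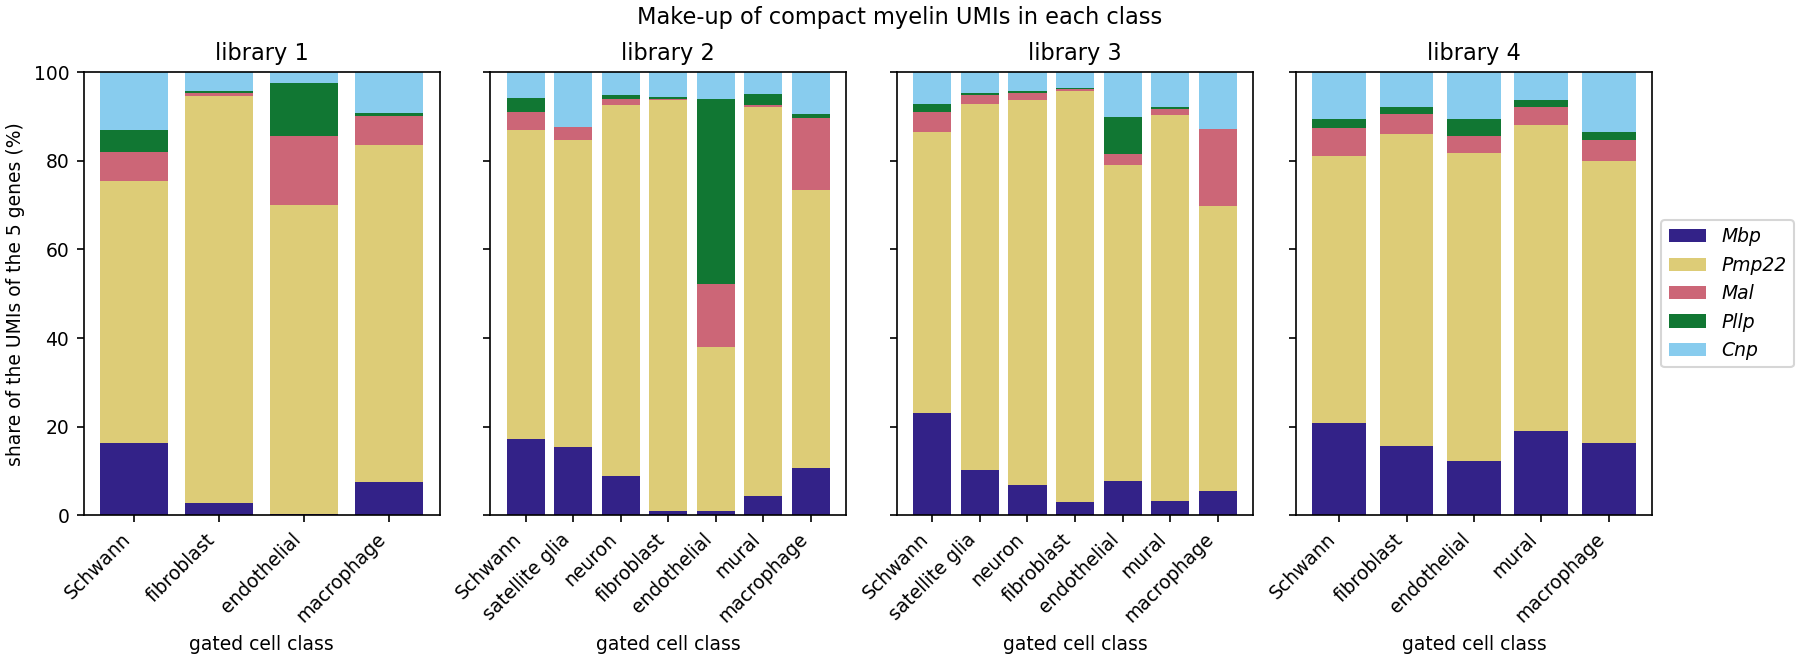
Share of each gene in the summed UMIs of the 5 genes (percent, stacked to 100) by gated class and library. Pmp22 takes 59.2% to 69.8% in Schwann-like cells and 91.7% to 92.8% in fibroblast-like cells of libraries 1 to 3, and Pllp takes 41.7% in endothelial-like cells of library 2.

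The mix of the 5 genes also differed between classes. Libraries here count transcript ends, so no length correction was made between genes. Whether the ends of the 5 genes were captured and mapped alike was not tested. Pmp22 made up 59.2%, 69.8%, 63.3% and 60.1% of the UMIs of the 5 genes in Schwann-like cells of libraries 1 to 4. In fibroblast-like cells it made up 91.7%, 92.8% and 92.8% in libraries 1 to 3, but 70.5% in library 4. Mbp made up 2.84%, 0.941% and 2.93% in the former and 15.5% in the latter, against 20.9% in Schwann-like cells of library 4. The fibroblast mix in library 4 therefore lay nearer to the Schwann-like mix than it did in the other 3 libraries.

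Neuron-like barcodes showed a split by depth. In the deep barcodes, with 20000 UMIs or more, Pmp22 stood at 9.58 in library 2 (606 barcodes) and 10.2 in library 3 (1407 barcodes), while Mbp stood at 0.389 and 0.183 and Mal at 0.0285 and 0.0227. In the barcodes between 3000 and 20000 UMIs Pmp22 stood at 34.7 and 32.4, Mbp at 8.74 and 9.53 and Cnp at 3.24 and 3.19. Under 3000 UMIs Pmp22 stood at 16.9 and 17.8 and Mbp at 4.46 and 3.68. All 5 genes were lower in the deep barcodes of both libraries than in either shallower range. The glial factor Sox10 also differed between the middle and deep barcodes, with 0.137 and 0.0431 in library 2 and 0.158 and 0.0206 in library 3. The neuronal gene Snap25 stood at 6.21 and 8.57 in library 2 and at 2.17 and 2.89 in library 3. In barcodes under 3000 UMIs of libraries 2 and 3, Sox10 stood at 0.168 and 0.197 and Snap25 at 5.71 and 2.48. All 5 genes were lower there than in the middle barcodes, while Sox10 was not. The part of glial RNA in the levels of the shallower barcodes was not tested. Pmp22 in the deep barcodes lay beside levels of 7.76 and 11.3 in fibroblast-like cells of the same libraries, and the next gene, Cnp, was at 0.416 and 0.351.

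**Figure D3:**
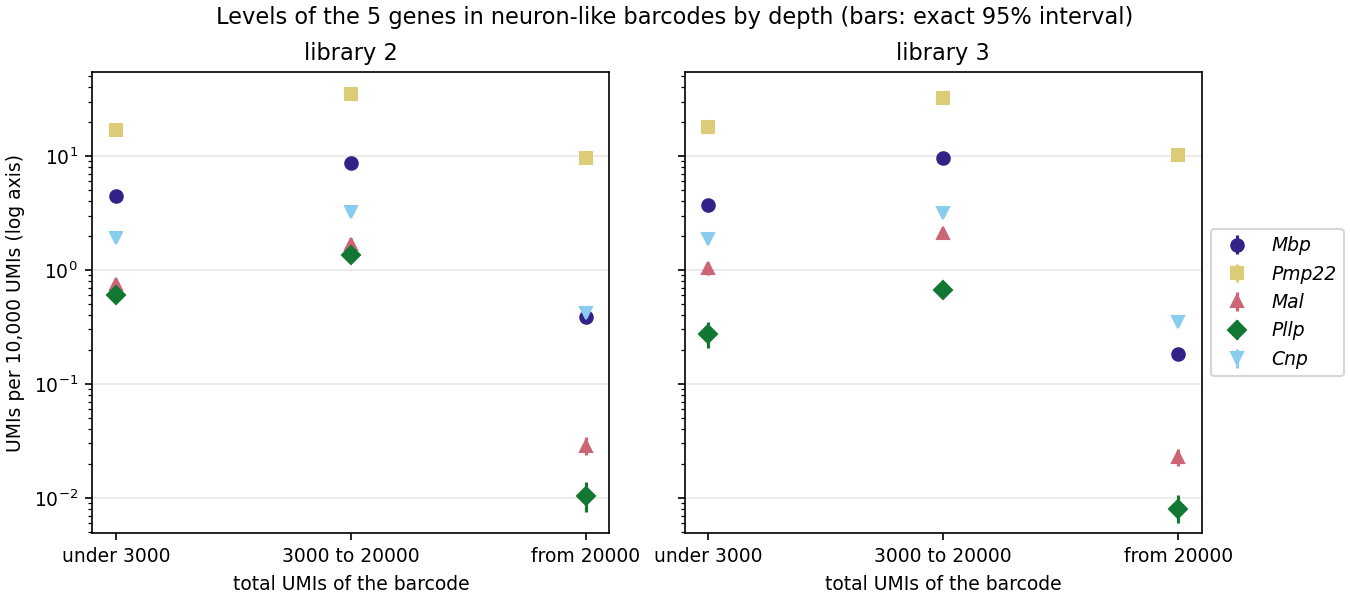
Levels of the 5 genes (UMIs per 10,000, logarithmic axis) in neuron-like barcodes of libraries 2 and 3 in 3 depth ranges, with exact 95% bars for counting error. In barcodes from 20000 UMIs Pmp22 is at 9.58 and 10.2, while Pllp is at 0.0104 and 0.00807.

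Mal stood at 6.92 in Schwann-like cells of library 1, 6.90 in library 2, 9.94 in library 3 and 6.25 in library 4. In summed level library 3 was high, but at a mitochondrial limit of 10% library 2 was the highest, at 15.9 against 11.2 in library 3. At the 20% limit the interval of library 1 (6.07 to 7.86) overlapped those of library 2 (6.43 to 7.39) and library 4 (6.18 to 6.32), and the latter pair lay just apart. A Mal UMI was found in 75.5%, 55.1%, 75.1% and 94.2% of these cells. The median cell had 5.53, 1.47, 5.12 and 5.45 in libraries 1 to 4, lowest in library 2. Satellite glia-like cells held 0.736 in library 2 and 0.846 in library 3. Endothelial-like cells of libraries 1 and 2 had 1.02 (0.815 to 1.25) and 0.908 (0.819 to 1.00), and those of libraries 3 and 4 had 0.0840 and 0.152. Their Mbp levels in libraries 1 and 2 were 0.0234 and 0.0625. Mal in endothelial-like cells thus stood above Mbp in libraries 1 and 2. In library 3 Mbp was at 0.265, with 70.7% of its UMIs in 3 barcodes, and without the 2 barcodes that had a Sox10 or Cdh19 UMI it was 0.0853 (0.0454 to 0.146), against 0.0525 (0.0227 to 0.103) for Mal. In library 4 Mbp was at 0.498, and without 15 such barcodes at 0.305, against 0.0455 for Mal. Mbp was thus above Mal in library 4 either way, while in library 3 the intervals overlapped without these barcodes.

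Macrophage-like cells of library 2 had a Mal level of 1.38 (1.14 to 1.66), from 116 UMIs in 223 cells. Its interval overlapped those of fibroblast-like cells of library 4, at 1.10 (1.05 to 1.14), and of endothelial-like cells of library 1. A Mal UMI was found in 16.1% of them, and the 3 top barcodes held 31.0% of the UMIs. Mbp in the same cells stood at 0.905, and 82.9% of its UMIs came from 3 barcodes. Without the 5 barcodes that had a Sox10 or Cdh19 UMI, Mal was 1.26 and Mbp 0.542. The other libraries had Mal levels of 0.310, 0.425 and 0.342 in macrophage-like cells of libraries 1, 3 and 4.

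Pllp was the scarcest of the 5 genes in Schwann-like cells, with 5.33 in library 1, 5.43 in library 2, 4.01 in library 3 and 2.12 in library 4. In summed level libraries 1 and 2 overlapped, and library 4 was low. At a mitochondrial limit of 10% library 2 was higher, at 11.5 against 5.49 in library 1. Detection was 68.4%, 38.7%, 53.0% and 74.6%. The median cell had 3.69, 0, 1.65 and 1.65 in libraries 1 to 4, lowest in library 2. The satellite glia-like cells of library 2 nearly lacked Pllp. Only 14 UMIs were found in 787 cells, a level of 0.0147 (0.00802 to 0.0246), and 1.14% of cells had 1 or more. This level is 370-fold below the Schwann-like level, where Mbp, Pmp22, Mal and Cnp differed by 7.49-, 6.80-, 9.36- and 3.25-fold. In library 3 Pllp stood at 0.258 in 67 satellite glia-like cells, from 7 UMIs of which 6 came from 1 barcode.

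Endothelial-like cells came second for Pllp in libraries 1 to 3, though in library 3 their interval overlapped that of satellite glia-like cells. Library 2 had 2.67 (2.51 to 2.83) from 1109 UMIs in 578 cells, the others 0.772, 0.284 and 0.157. A Pllp UMI was found in 60.0% of the endothelial-like cells of library 2, against 38.7% of its Schwann-like cells at a lower median depth. Thinned to 1000 UMIs the shares were 21.3% and 30.0%. The Schwann-like level was 2.04-fold higher in library 2, a log2 ratio of 1.03 (0.88 to 1.17) and the smallest of the 95 contrasts. In that contrast 13.1% of tested genes were at least 2-fold higher. With mixed barcodes kept in their highest class the log2 ratio was 0.94, under 2-fold.

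Within the endothelial-like cells of library 2, the 347 cells with a Pllp UMI were compared in level with the 231 without. Summed endothelial markers stood at 79.6 (78.6 to 80.6) and 56.4 (55.1 to 57.8), and summed Schwann lineage markers at 0.958 (0.848 to 1.08) and 1.14 (0.964 to 1.34). Mbp was at 0.0553 and 0.0788, and Mal at 0.678 and 1.43. Endothelial markers were thus higher in the cells with Pllp, and Mal was lower, while the intervals of the Schwann markers and of Mbp overlapped. Cells with Pllp were also deeper, at a median of 7766 against 4373 UMIs, and deeper cells more often show any gene. In library 4 the order of the markers differed: the 20 endothelial-like cells with a Pllp UMI stood at 0.801 (0.605 to 1.04) for the Schwann lineage markers and at 42.9 (41.4 to 44.4) for the endothelial markers, against 0.542 (0.432 to 0.672) and 44.8 (43.7 to 45.9) in the 53 without. The intervals overlapped for both lists. In library 3 the endothelial markers stood at 49.7 and 41.8, and in library 1 at 70.7 and 41.2, with 0 and 4 UMIs of the Schwann lineage markers, too few to compare. The endothelial-like level of Pllp in library 2 was 2.68 without the 9 barcodes that had a Sox10 or Cdh19 UMI, as against 2.67 with them.

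Cnp had Schwann-like levels of 14.0, 10.2, 15.5 and 10.3 UMIs per 10,000 in libraries 1 to 4. The intervals of libraries 2 and 4 overlapped, as did those of libraries 1 and 3. At a mitochondrial limit of 10% library 2 stood at 15.4, near the 15.6 of library 3. A Cnp UMI was found in 93.9%, 89.7%, 91.3% and 98.6% of the cells. Cnp also stood closest between the glial classes of library 2, with 3.13 (3.02 to 3.24) in satellite glia-like cells and a Schwann-like level 3.25-fold higher. In library 3 the satellite glia-like level was 1.99 and the ratio 7.82-fold. Cnp was found in 90.3% of satellite glia-like cells of library 2, against 89.7% of its Schwann-like cells, and in 29.1% and 58.8% after thinning to 1000 UMIs. Outside glia it stood between 0.164 and 0.798 in libraries 1 to 3 in the other 5 classes and between 0.426 and 1.90 in library 4.

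**Figure D4:**
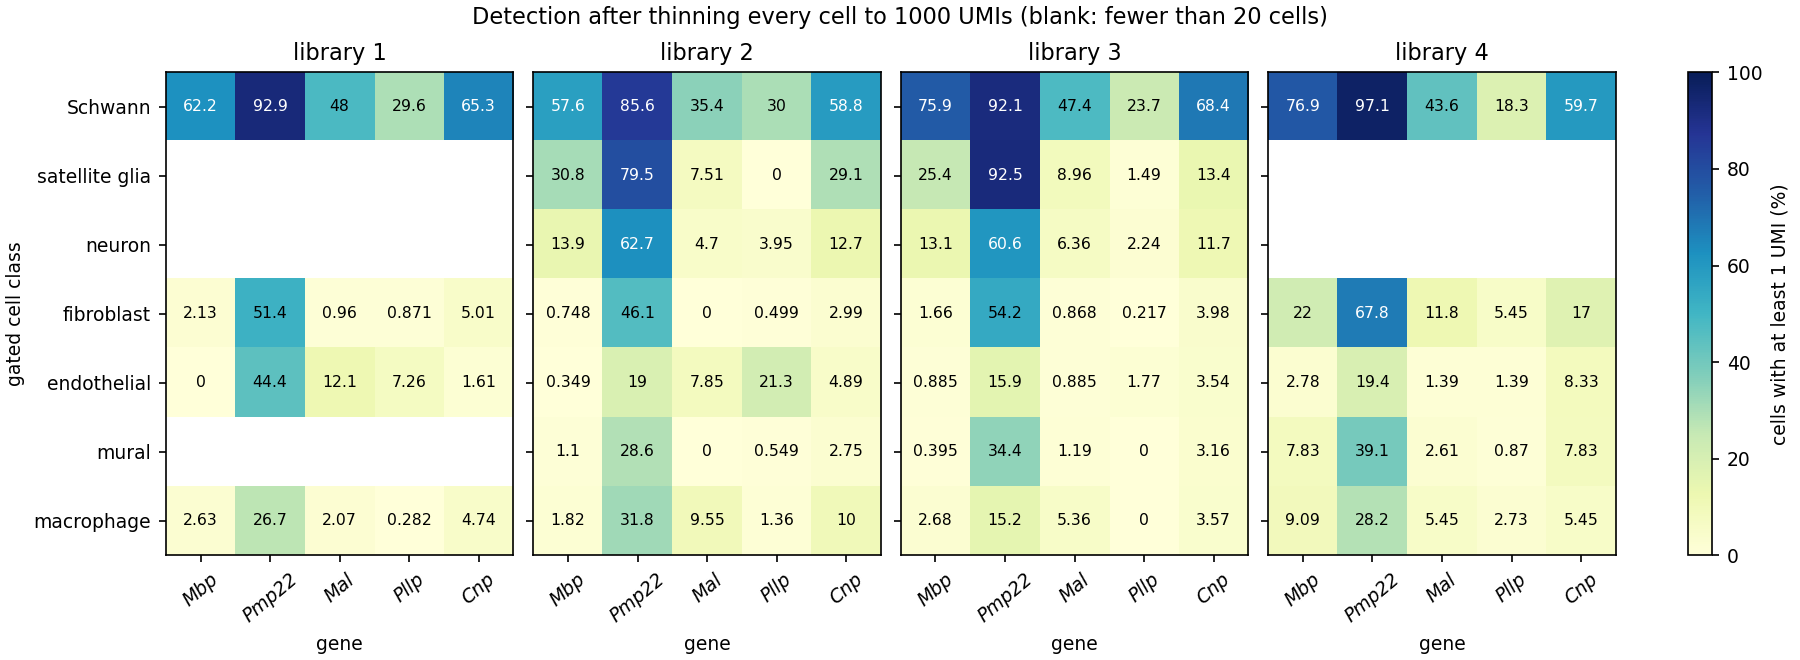
Share of cells with at least 1 UMI of each gene (percent, colour and printed value) by gated class and library after every cell was thinned to 1000 UMIs and shallower cells were left out. Schwann-like cells have the highest share in 19 of 20 gene and library pairs, the other being Pmp22 in library 3, with 92.1% against 92.5% of satellite glia-like cells, and Pmp22 is the gene with broad detection elsewhere, such as 51.4% of fibroblast-like cells of library 1.

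Schwann-like cells were then split by markers of state that are not among the 5 genes. Myelinating cells carried at least 2 of Mag, Prx, Ncmap, Drp2, Gjb1 and Cldn19, genes of the myelin sheath and its contacts. They numbered 76 in library 2, 108 in library 3 and 1302 in library 4, and 13 in library 1, too few for a contrast. Cells with dividing markers were set apart first, so a dividing cell was never called myelinating. Each of the 15 contrasts between myelinating and all other Schwann-like cells had a higher level in the myelinating cells, and 12 of 15 were at least 2-fold higher. The other 3, Mal, Pllp and Cnp in library 4, were 1.48-, 1.43- and 1.52-fold higher. At least 2-fold higher were 7.77% of tested genes in library 2, 5.36% in library 3 and 2.62% in library 4. The log2 ratio of Pmp22 in library 4, 1.03, was 0.92 as a mean over cells and 0.88 with at least 4 class markers, and that of Cnp in library 2, 1.46, was 0.95 at a mitochondrial limit of 10%, each under 2-fold.

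Mbp stood at 83.1 (80.1 to 86.2) in myelinating cells of library 2, at 82.1 (79.8 to 84.4) in library 3 and at 35.2 (34.9 to 35.5) in library 4. In immature or nonmyelinating cells, which had at least 2 of Ngfr, Ncam1, L1cam, Scn7a and Sox2 and no myelinating marker, it stood at 5.28, 9.02 and 15.1. The myelinating cells were higher in all 3 libraries, and library 4 had the smallest gap, with the lowest myelinating level and the highest immature or nonmyelinating level. Pmp22 followed the same order, with 342, 224 and 93.9 in myelinating cells and 18.8, 32.2 and 45.9 in the immature or nonmyelinating cells. Myelinating cells had median depths of 4123, 5235.5 and 8674.5 UMIs in libraries 2 to 4. Immature or nonmyelinating cells had 4706, 2787 and 6510, so myelinating cells were deeper in libraries 3 and 4 but not in library 2. Depth was not matched between the states. The log2 ratio of myelinating to all other Schwann-like cells was 3.94 in library 2, 2.78 in library 3 and 1.03 in library 4 for Pmp22. For Mbp it was 3.81, 2.83 and 1.23. The myelinating gate needed 2 markers or more. In library 4, with dividing cells included, 893 Schwann-like cells had 2 markers, 368 had 3, 173 had 4 and 52 had 5. Mbp stood at 19.96 in those with 2 markers and at 97.0 in those with 5. Library 2 had an Mbp level of 75.8 at 5 markers, in 30 cells. The part of marker number in the order of the libraries was not tested.

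Mal and Pllp divided the states most in library 2. Mal stood at 19.7 in myelinating and 0.9497 in immature or nonmyelinating cells of library 2, and Pllp at 16.7 and 0.164, the latter from 9 UMIs in 106 cells. In library 3 Mal stood at 14.4 and 3.66, and Pllp at 6.08 and 1.59. In library 4 they stood at 8.20 and 5.43 and at 2.71 and 2.07. Every myelinating cell of library 2 had a Pllp UMI, 76 of 76, as against 7.55% of immature or nonmyelinating cells. The log2 ratio of Pllp against all other Schwann-like cells, 5.30 (4.81 to 5.85) in library 2, was the largest of the 15, and 2.01 and 0.51 in libraries 3 and 4. The immature or nonmyelinating cells of library 2 stood near the satellite glia-like cells of that library for Pmp22, at 18.8 and 17.7, and for Mal, at 0.9497 and 0.736. They stood higher for Mbp, at 5.28 and 3.95, Cnp, at 5.86 and 3.13, and Pllp, at 0.164 and 0.0147, with intervals apart. Whether some of the immature or nonmyelinating cells were satellite glia without UMIs of the 4 splitting genes was not tested.

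Cnp differed least between states in libraries 2 and 3, with 18.2 and 5.86 in myelinating and immature or nonmyelinating cells of library 2, 20.7 and 7.98 in library 3 and 13.7 and 9.02 in library 4. Its log2 ratio against all other Schwann-like cells was 1.46, 1.15 and 0.60. Dividing cells could be described in library 4 only, where there were 991. Their levels were 13.7 for Mbp, 41.6 for Pmp22, 5.16 for Mal, 1.62 for Pllp and 8.31 for Cnp. Against the 1580 immature or nonmyelinating cells of library 4 the log2 ratios were -0.14, -0.14, -0.07, -0.36 and -0.12 in the same order. None of the 5 was lower by 2-fold, and 1.36% of tested genes were. Dividing cells were deeper, at a median of 10708 UMIs against 6510.

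A finer count of myelinating markers gave a graded picture. In library 4, cells with 0 to 5 of the 6 markers stood at 14.2, 15.5, 19.96, 31.5, 57.2 and 97.0 for Mbp, and at 43.1, 48.4, 55.2, 83.0, 147 and 282 for Pmp22. Pllp stood at 1.96, 1.90, 1.85, 2.26, 3.83 and 7.34, so its level differed little up to 2 markers. Mal ran from 5.22 to 16.3 and Cnp from 8.61 to 19.8. Groups held 2158 cells at 0 markers and 52 cells at 5, and the median depth went from 6676 to 12595 UMIs. More markers are found in deeper cells, so depth and marker number moved together. In library 3, where 0 to 4 markers could be shown, Mbp ran from 9.90 to 103 and Cnp from 8.25 to 24.5.

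**Figure D5:**
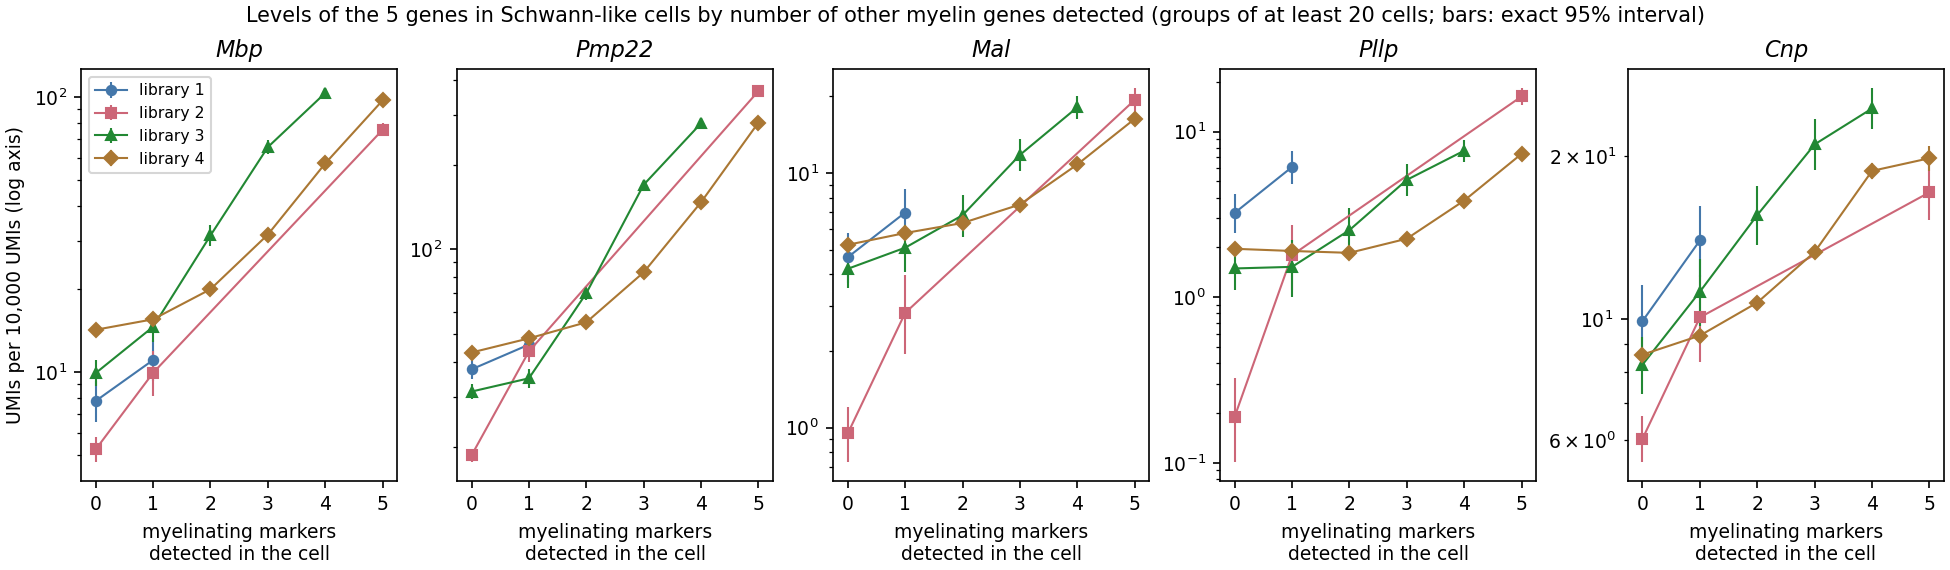
Levels of the 5 genes (UMIs per 10,000, logarithmic axes with a range of their own) in Schwann-like cells by the number of the 6 myelinating markers found in the cell, with exact 95% bars, for groups of at least 20 cells. Lines join the groups shown, and in library 2 they pass over 2 to 4 markers, where fewer cells were found. Mbp in library 4 goes from 14.2 to 97.0.

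The 5 genes were often found together. All 5 had a UMI in 49.0% (38.7 to 59.3) of Schwann-like cells in library 1, 33.3% (27.4 to 39.6) in library 2, 44.7% (38.4 to 51.0) in library 3 and 69.9% (68.7 to 71.1) in library 4. No Schwann-like cell lacked all 5. Within a library, Spearman correlations of the levels across cells are given as a description, since cells share a library and differ in depth. Between Mbp and Pmp22 they were 0.55, 0.65, 0.74 and 0.49 in libraries 1 to 4. With total UMIs they were -0.03, 0.09, 0.54 and 0.08 for Mbp and -0.24, 0.01, 0.36 and 0.05 for Pmp22. Depth thus ran alongside both levels most in library 3. Pllp differed between libraries. Its correlation with Mbp was 0.31, 0.77, 0.57 and 0.15, and that with Mal was 0.27, 0.77, 0.47 and 0.04. In library 4 Pllp had 9901 UMIs in 5430 cells, under 2 a cell, and the part of counting error in its low coefficients there was not tested.

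Across 23 combinations of library and class with at least 50 cells, the genes whose log2 level was most like each of the 5 were sought among 12962 genes. For Mbp these included Cnp (Pearson r of 0.965), Ugt8, Pmp2 and Aatk. Those for Pmp22 included Gsta4 (0.923), Magi2, Ugt8 and Kif19. For Mal they were Mme (0.872), Bcas1, Depdc7, Cnp and Mag, and for Pllp Ctnnal1 (0.880), Mme, Efr3b, Usp6nl and Mal. Cnp was nearest to Kif19 at 0.974, then to Mbp, Plekhb1, Cab39l and Itgb8. Mal and Pllp thus had Mme in common and lower coefficients than Mbp and Cnp. These combinations share libraries, and the coefficients carry no test.

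A list of 20 other genes of myelin and its lipids, which holds myelin proteins and enzymes of myelin lipid synthesis, was counted beside the 5. Pmp2 and Cryab were among the 3 with the most UMIs in Schwann-like cells. Pmp2, a fatty acid binding protein of myelin, stood at 2.29, 4.64, 14.4 and 11.7 in libraries 1 to 4, and the small heat shock protein gene Cryab at 14.5, 17.3, 9.64 and 5.95. Pmp2 was thus highest in libraries 3 and 4, an order of libraries shared by none of the 5 genes. In the contrast with fibroblast-like cells, 17 of 17 tested genes of the list were at least 2-fold higher in library 1, 17 of 18 in library 2, 15 of 17 in library 3 and 16 of 18 in library 4. Of all tested genes, 49.1%, 13.3%, 12.7% and 12.7% were at least 2-fold higher in libraries 1 to 4. Cldn11, named after its values were seen, was lower by 2-fold or more in libraries 2 and 3. The median log2 ratios were 5.69, 6.48, 6.27 and 2.23, with all-gene medians of 0.96, 0.04, 0.07 and 0.03. Against satellite glia-like cells 13 of 17 and 12 of 14 were at least 2-fold higher in libraries 2 and 3, beside 9.56% and 10.7% of all tested genes.

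Of that list 6 genes were the myelinating markers, so the contrast of states was counted over the other 14. Of those tested, 9 of 11 were at least 2-fold higher in myelinating cells than in all other Schwann-like cells in library 2, 6 of 10 in library 3 and 4 of 12 in library 4. The median log2 ratios were 1.499, 2.18 and 0.67, beside all-gene medians of -0.16, -0.11 and -0.04. None was lower by 2-fold. For the 5 genes the counts were 5 of 5, 5 of 5 and 2 of 5. Of all tested genes, 7.77%, 5.36% and 2.62% were at least 2-fold higher in libraries 2 to 4.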

How the data were processed

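The deposited values were UMI counts of 25399 genes in 41444 barcodes of 4 libraries, made with the 10x 3′ v3 kit per the labels' protocols and with Cell Ranger 3.1.0 per the file headers. Rnor_6.0, Seurat and CASAVA 1.8 are listed in the submitters' processing notes, with no role given. Library totals were 74425958, 81920125, 97572003 and 82252902 UMIs.

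Barcodes with at least 500 genes and at most 20% mitochondrial UMIs were kept. For each cell class a score was taken as the mean over its markers of the level per 10,000 UMIs, divided by the 90th percentile of the nonzero levels and capped at 1. A class needed 3 detected markers and a score 1.5 times the next. Barcodes short of that lead were called mixed, those with no class at 3 markers unassigned, and both were left out. Unassigned barcodes numbered 147, 18, 52 and 774 in libraries 1 to 4. Those of library 4 had an Mbp level of 20.9 UMIs per 10,000, beside 20.5 in its Schwann-like cells. Leaving out mixed barcodes stood in for a doublet caller, and none was run. T or NK, neutrophil and perineurial classes were gated as well, and erythroid barcodes could not be, since 2 of 4 markers were found. Glia without a UMI of Fabp7, Kcnj10, Slc1a3 or Bcan were called Schwann-like, those with at least 2 satellite glia-like, and those with 1 were left out. Ednrb and Glul were not used to split, because most glia of every library held them. The score and the split were set after the marker values had been seen.

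Ratios are of summed UMIs per total within a library, over genes with at least 20 UMIs on both sides together, with at least 20 cells a side and a floor of 3 UMIs, and were called at 2-fold. The ratio and its interval were run on simulated Poisson counts. These hold no spread between cells beyond counting error, so the run cannot show how the intervals hold for real cells. Intervals are exact Poisson, Clopper-Pearson or conditional binomial at 95%. No p-value was computed. Named genes were the 5 genes, the 5 with the highest Pearson correlation with each of them in log2 of the level plus 0.1 among genes with at least 200 UMIs, and the 3 of the list of 20 with the most Schwann-like UMIs, and 1 gene so named is not reported here. The genes and lists were chosen with earlier results of these data known. Alternatives covered the cell filter, the gate, mixed and shared barcodes, the denominator, averaging over cells, thinning to 1000 or 2000 UMIs, the gene filter and the state gate. Restriction to cells with at least 3000 UMIs, and leaving out non-glial barcodes with a Sox10 or Cdh19 UMI, were added after the data had been seen. Computation used pandas 2.3.3, scipy 1.17.1, numpy 2.4.6 and matplotlib 3.10.9 under Python 3.11.15.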

Additional observations from a re-analysis of the deposited data

Results flagged for a closer look

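Cnp in the T or NK-like cells of library 1, a class outside the 7 described, stood at 1.20 UMIs per 10,000 (0.598 to 2.14), from 11 UMIs in 29 cells. It was set apart because it lay above the highest level of Cnp in the other nonglial classes of that library, 0.442 in macrophage-like cells. Mbp, Mal and Pllp had 0 UMIs in the same 29 cells, and 24.1% of them had a Cnp UMI.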

How the results depend on the processing

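Among the 7 classes, Schwann-like cells stayed highest in level in 20 of 20 gene and library pairs under every alternative run for it. The count for detection was 17 of 20 as reported and ran from 16 to 20; thinned to 1000 UMIs it was 20 in 1 random draw and 19 in the draw plotted. The contrasts of classes stayed at 95 of 95, except 94 with mixed barcodes kept, and the states ran from 11 to 12 of 15. No ratio changed direction under the alternatives run.

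A mitochondrial limit of 10% moved library 2 most: Schwann-like Mbp was 51.1 in place of 29.6, Pmp22 273 in place of 120.3, Mal 15.9 in place of 6.90, Pllp 11.5 in place of 5.43 and Cnp 15.4 in place of 10.2, and the log2 ratio of Cnp in the myelinating state was 0.95 in place of 1.46. The Pmp22 ratio of that state in library 4 was 0.88 with at least 4 markers and 0.92 as a mean over cells, in place of 1.03. The causes were not tested. Of the 95 class ratios, 34 moved by over 1.5 times at the 10% limit, 29 as means over cells and 17 without non-glial barcodes that had a Sox10 or Cdh19 UMI. Precision is limited in small classes, such as the 67 satellite glia-like cells of library 3 and the 73 endothelial-like cells of library 4. No paired analysis was possible because each group had 1 library, the libraries could not be tied to the labels' groups, and no result comes from a test.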
